A study of Rattus norvegicus with 20 samples.

Results

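Inhibitory interneurons are neurons that release GABA, the main inhibitory transmitter of the forebrain. A set of 6 genes that mark them was followed through the dorsal and the ventral subiculum of the rat, the output region of the hippocampus. The members were fixed by a list of Ensembl gene IDs, in which ENSRNOG00000000007 stands for Gad1, ENSRNOG00000018200 for Gad2, ENSRNOG00000001837 for Sst, ENSRNOG00000006471 for Pvalb, ENSRNOG00000046449 for Npy and ENSRNOG00000018808 for Vip. All 6 IDs were among the 32883 IDs of the count table, and 5 of them had counts. Npy was listed at 0 in all 20 libraries, as were 11170 IDs of the table in all. The symbols are those of the list, because no table used here pairs these IDs with names, and for the same reason the tissue could not be checked against markers of the subiculum or of other cell types.

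The libraries came from wild-type Wistar rats aged 3 months and formed 4 groups of 5. Dorsal control and ventral control libraries came from animals labelled as controls. Dorsal preconditioning and ventral preconditioning libraries were taken 24 hours after a protocol that the series title describes as acute seizures, evoked by electrical stimulation of the perforant pathway. What the controls received, and whether each library is a separate animal, is not given in the sources used here, so the p-values below measure the spread between libraries. The treated columns of the table carry the letter e where the sample titles carry p, and the match between them rests on library number and region.

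GABA is made from glutamate by the glutamate decarboxylases that Gad1 and Gad2 encode. The Gad1 enzyme is spread through the cell body and makes much of the basal GABA, while the Gad2 enzyme is enriched at nerve terminals. Most forebrain interneurons express both genes, and the other members mark subclasses of these cells. Sst encodes somatostatin, a peptide of interneurons that contact dendrites, and Pvalb encodes parvalbumin, a calcium-binding protein of fast-spiking interneurons that contact cell bodies. Vip encodes vasoactive intestinal peptide, found in interneurons that often inhibit other interneurons, and Npy encodes neuropeptide Y.

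Total counts ranged from 3087146 to 20463678 per library. The lowest count of any measured member was 70, for Vip in ventral control 1. Levels are given as CPM, counts scaled to the TMM-adjusted size of each library over all 20 libraries, and are compared between groups and not between genes, because gene lengths were not used. On the first 5 principal components, 3 libraries stood apart from the rest of their group, namely ventral control 2, dorsal control 4 and dorsal preconditioning 2. The components used the 14087 genes that passed a count filter over all 20 libraries. The flags fell on components 2, 4 and 5, which held 9.52%, 8.09% and 4.6% of the variance. There the gap to the next library was 0.723, 0.872 and 0.821 of the group's range. Each of the 4 groups was searched on all 5 components, so a flag can arise by chance. Among dorsal controls, number 4 had the lowest Gad1, Gad2 and Vip and the highest Sst and Pvalb.

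**Figure D1:**
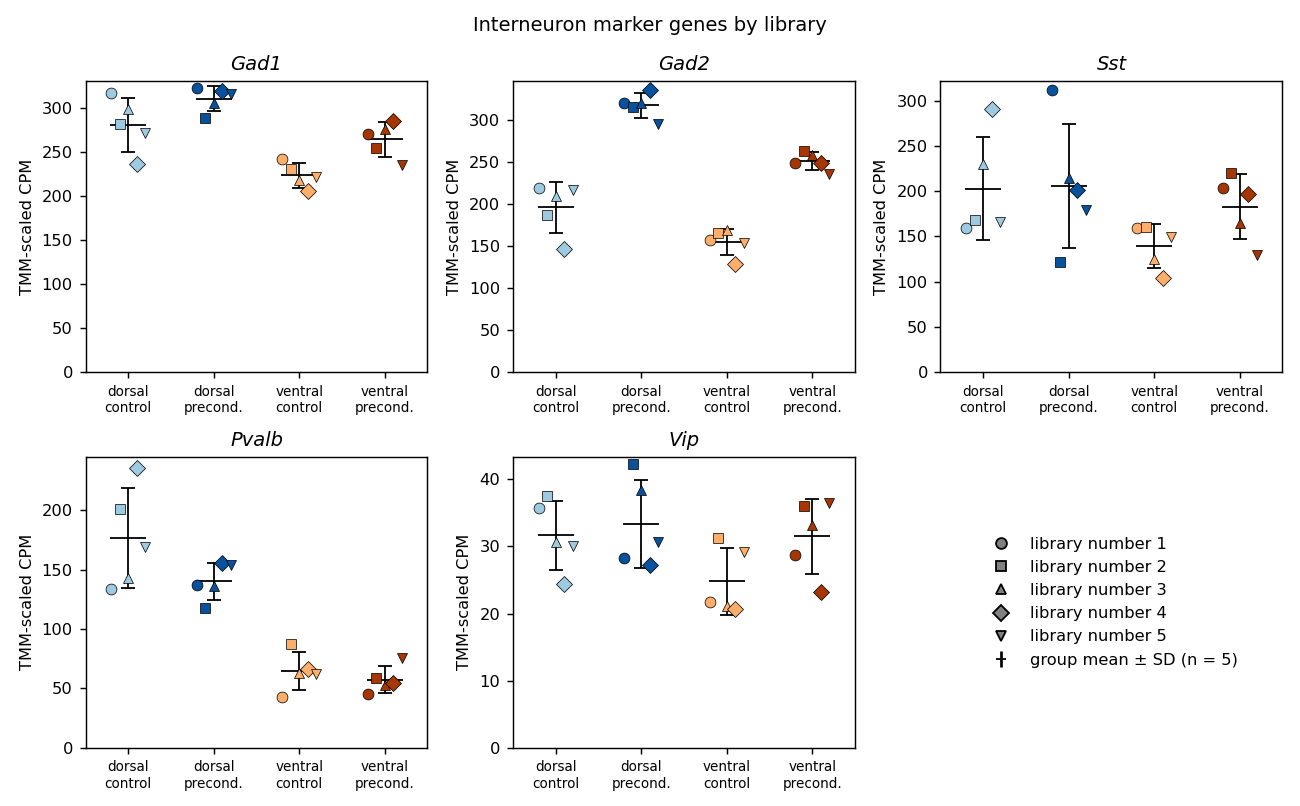
TMM-scaled CPM (vertical axes, starting at 0) of the 5 members with counts, in the 4 groups on the horizontal axes. Each symbol is a library, its shape the library number, and the bars are the group mean ± SD (n = 5). Gad2 lies higher in all preconditioned libraries than in the controls of the same region, and Pvalb lies lower in all ventral than in all dorsal libraries.

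Gad2 was the only member that passed the test after preconditioning, and it rose by a similar factor in both regions. The 100 bases before the annotated start of Gad1 and Gad2 are shown because these related enzymes differed in their calls. They are RefSeq sequences of the GRCr8 build, matched by symbol, read on the gene's own strand, with CpG dinucleotides in capitals. The Gad1 stretch is chr3:75777352-75777451 on the plus strand and the Gad2 stretch is chr17:89671618-89671717 on the plus strand.
Gad1: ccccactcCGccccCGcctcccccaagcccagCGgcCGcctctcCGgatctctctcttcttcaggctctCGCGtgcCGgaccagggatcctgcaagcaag
Gad2: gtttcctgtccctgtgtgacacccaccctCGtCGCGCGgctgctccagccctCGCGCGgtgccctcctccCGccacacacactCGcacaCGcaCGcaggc
The Gad1 stretch holds 8 CpG and the Gad2 stretch 11, where the median of 33469 rat promoters is 3. At least 8 were held by 24.1% of those promoters and at least 11 by 13.6%. The cAMP response element TGACGTCA, the site of the activity-regulated factor CREB, was searched on both strands of the windows from 250 bases before to 50 bases after each start. Of the 6 members, Sst alone held it in full, at bases 3 to 10 after its annotated start, and 1.83% of all windows held it. Its shorter part TGACG was also searched on both strands. Besides Sst, Vip held that part at bases -97 to -93 and Pvalb at bases -241 to -237, as did 21.2% of all windows.

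In dorsal controls 1 to 5, Gad2 measured 220, 188, 210, 147 and 217 CPM. In dorsal preconditioning 1 to 5 it measured 320, 316, 321, 336 and 296 CPM. Every preconditioned dorsal library lay above every dorsal control, and the lowest control was number 4. The means were 196 ± 30.4 and 318 ± 14.6 CPM (SD, n = 5 each), a 1.61-fold rise. In log2 terms the change was 0.69 (SE 0.11, 95% interval 0.45 to 0.93, adjusted p = 0.0158 in edgeR's quasi-likelihood test over 13647 genes). Thus 1 of the 5 members tested was called in the dorsal region, where 0.271% of all genes tested were called and 0.213% were called higher. Gad2 ranked 20th of the 13647 genes by p-value. Group ranges that did not overlap were found for 2.26% of all genes tested.

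In ventral controls 1 to 5, Gad2 measured 157, 165, 169, 129 and 153 CPM. In ventral preconditioning 1 to 5 it measured 249, 263, 259, 248 and 236 CPM. The ventral groups did not overlap either. The means were 155 ± 15.8 and 251 ± 10.5 CPM, a 1.62-fold rise or 0.70 on the log2 scale (SE 0.09, 95% interval 0.50 to 0.90, edgeR adjusted p = 0.000598 over 13291 genes). Again 1 of 5 members was called, against 5.06% of all genes tested called and 2.93% called higher, and Gad2 ranked 68th by p-value. Non-overlapping ranges were found for 6.79% of genes.

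The rise of Gad2 was then compared between the regions as an interaction over all 20 libraries. The difference of the log2 responses, ventral minus dorsal, was 0.01 (SE 0.14, 95% interval -0.29 to 0.30, edgeR adjusted p = 0.995). The dorsal call was the less secure, as 2 of 18 alternatives lost it and none of the ventral ones did. It held with DESeq2 (0.70, adjusted p = 2.56e-06) and with limma-voom (0.62, adjusted p = 0.00219). Without dorsal preconditioning 3 the log2 fold change was 0.69 with an adjusted p of 0.0553 in edgeR. With the library number as a block it was 0.70 and did not pass either (adjusted p = 0.0515), though same-numbered dorsal libraries did not deviate together. Without dorsal control 4 and dorsal preconditioning 2, which stood apart, the dorsal log2 fold change was 0.60 (edgeR adjusted p = 0.00345). Without ventral control 2, which stood apart in the ventral region, the ventral one was 0.74 (edgeR adjusted p = 0.000391).

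Gad1 did not pass the test after preconditioning in either region. It measured 317, 283, 299, 236 and 272 CPM in dorsal controls 1 to 5, and 323, 288, 306, 320 and 317 CPM in dorsal preconditioning 1 to 5. These ranges overlapped. The means were 281 ± 30.5 and 311 ± 14.2 CPM (SD, n = 5 each), and the estimated log2 change was 0.14 (SE 0.09, 95% interval -0.07 to 0.34, edgeR adjusted p = 0.783).

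In the ventral region Gad1 measured 243, 231, 218, 205 and 222 CPM in controls 1 to 5, and 271, 255, 277, 285 and 235 CPM after preconditioning. Of the preconditioned libraries, only number 5 lay below the highest control. The means were 224 ± 13.9 and 265 ± 19.9 CPM. Its log2 change of 0.24 (SE 0.09, 95% interval 0.05 to 0.43) had an unadjusted p of 0.0166 and an adjusted p of 0.153 in edgeR, so it did not pass over all genes. With limma-voom and sample quality weights the value was 0.31 and passed, with an adjusted p of 0.0162. The intervals of Gad1 thus allow a rise of up to 0.34 in the dorsal and 0.43 in the ventral region on the log2 scale, both below the lower bounds found for Gad2 there.

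The ratio of Gad2 to Gad1 counts within a library does not depend on the scaling between libraries. It was 0.693, 0.664, 0.702, 0.621 and 0.797 in dorsal controls 1 to 5, and 0.646, 0.715, 0.775, 0.627 and 0.692 in ventral controls. After preconditioning it was 0.990, 1.09, 1.05, 1.05 and 0.933 in the dorsal region, and 0.916, 1.03, 0.936, 0.870 and 1.01 in the ventral region. All 10 preconditioned libraries lay above all 10 controls. The group means were 0.695 ± 0.065 and 1.02 ± 0.062 in the dorsal region and 0.691 ± 0.059 and 0.952 ± 0.066 in the ventral region (SD, n = 5 each). Between the regions the ratios of each condition overlapped. This ratio was looked at after the levels had been seen and is given without a test. As the genes differ in length, a ratio of 1 does not stand for equal numbers of transcripts.

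**Figure D2:**
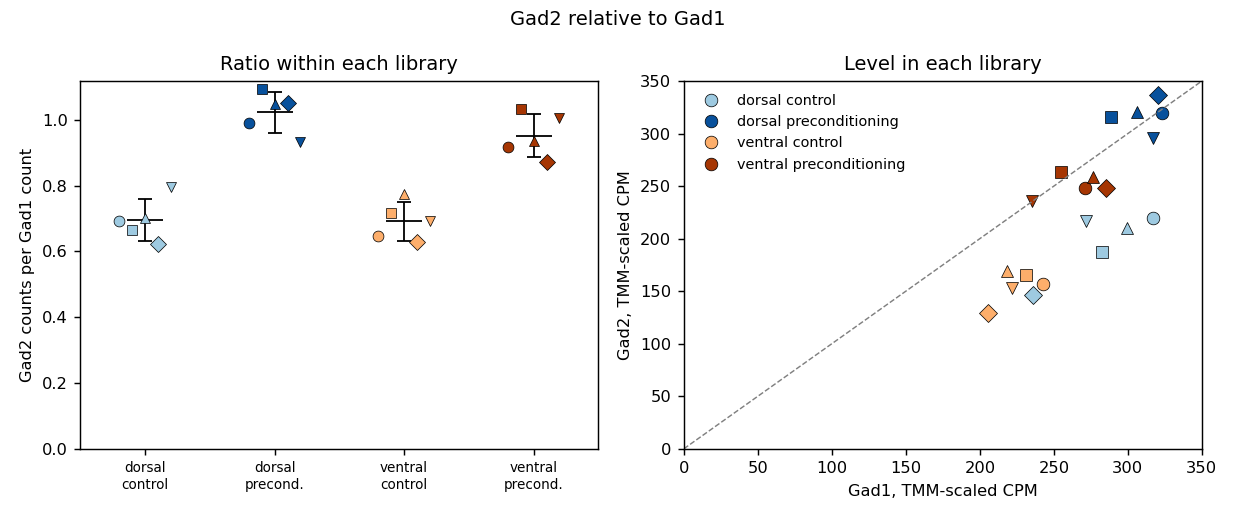
Left, Gad2 counts per Gad1 count in each library by group, with group mean ± SD (n = 5); right, Gad2 against Gad1 in TMM-scaled CPM, with a dashed line where both values are equal. Symbol shape is the library number and colour the group on both sides; the highest control ratio is 0.797 and the lowest preconditioned ratio 0.870.

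The decarboxylases also differed between the regions, by a smaller factor. In controls Gad1 was lower in the ventral region, by a log2 value of -0.33 (SE 0.10, edgeR adjusted p = 0.026), and the value for Gad2 was -0.35 (SE 0.13, adjusted p = 0.0557). Control libraries of the same number deviated together across the regions. Gad2 passed in 7 of 18 alternatives. With the library number as a block it was -0.34 (edgeR adjusted p = 0.00986). It was -0.34 with DESeq2 (adjusted p = 0.0412) and -0.46 with limma-voom (adjusted p = 0.00284). Without dorsal control 4 and ventral control 2, which stood apart, it was -0.48 (edgeR adjusted p = 0.00257). At -0.30 without dorsal control 1 (adjusted p = 0.126) and -0.28 without ventral control 4 (adjusted p = 0.146), it did not pass. Within every same-numbered control pair both genes were lower in the ventral library. After preconditioning both passed. Gad1 was at -0.24 (SE 0.08, adjusted p = 0.0431) and Gad2 at -0.34 (SE 0.08, adjusted p = 0.00416). Neither gene's ventral range overlapped the dorsal one, as for 19.1% of all genes tested. For Gad1 the lowest dorsal library was at 288 CPM and the highest ventral one at 285 CPM. The Gad1 calls were near the threshold. In controls the call was lost without dorsal control 1 or 2, or ventral control 3, 4 or 5 (adjusted p at most 0.0782). After preconditioning it was lost without any single library except dorsal preconditioning 2 or ventral preconditioning 3 (adjusted p at most 0.0985), and also with no filter beyond 1 count, at -0.23 (adjusted p = 0.104).

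Pvalb showed the largest regional difference of the members. The 100 bases before its annotated start are shown for that reason, at chr7:111666290-111666389 on the minus strand of GRCr8, from RefSeq, with CpG in capitals. They hold 9 CpG, a number reached by 20.2% of rat promoters.
Pvalb: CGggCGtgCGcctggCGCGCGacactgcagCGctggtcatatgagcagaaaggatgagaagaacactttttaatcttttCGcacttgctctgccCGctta
In controls 1 to 5 Pvalb measured 134, 201, 143, 236 and 169 CPM in the dorsal region, and 42.4, 87.4, 63.3, 66.0 and 62.5 CPM in the ventral region. The lowest dorsal library lay above the highest ventral one. The means were 177 ± 42.0 and 64.3 ± 16.0 CPM (SD, n = 5 each), so the ventral level was 0.367 times the dorsal one. The ventral minus dorsal log2 difference was -1.45 (SE 0.19, 95% interval -1.85 to -1.04, edgeR adjusted p = 7.3e-05 over 13509 genes).

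After preconditioning Pvalb measured 137, 118, 136, 156 and 154 CPM in the dorsal libraries 1 to 5, and 45.1, 59.0, 52.5, 54.7 and 76.0 CPM in the ventral ones. Again the groups did not overlap. This log2 difference was -1.29 (SE 0.13, 95% interval -1.56 to -1.01, edgeR adjusted p = 6.27e-06 over 13640 genes). Pvalb was lower in the ventral library of all 10 same-numbered pairs, with differences in log2 CPM between -1.83 and -1.17 in controls and between -1.60 and -0.999 after preconditioning. Leaving out any single library left the difference between -1.58 and -1.32 in controls and between -1.41 and -1.21 after preconditioning. In this bulk tissue, fewer cells of a type and less RNA per cell cannot be told apart.

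In the regional comparison, 3 of 5 members tested were called in controls and 3 of 5 after preconditioning, all lower in the ventral region. Among all genes tested, 25.7% were called in controls and 26.7% after preconditioning, and 14.5% and 14.7% were called lower. The median log2 fold change of the members was -0.35 in controls and -0.24 after preconditioning, where the median over all genes was 0.02 in both. With the library number as a block, 4 of 5 members were called in controls, namely Gad1, Gad2, Pvalb and Vip, all lower in the ventral region. That fit, which uses the pairing seen among controls, called 4917 of the 13509 genes tested, 2381 of them higher. Without a block, the count in controls fell to 1 without ventral control 3, 4 or 5. It rose to 5 without ventral control 2 or without the libraries that stood apart. Pvalb was called in each of these fits. Its groups did not overlap in either condition, as for 18.9% of all genes tested in controls and 19.1% after preconditioning.

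**Figure D3:**
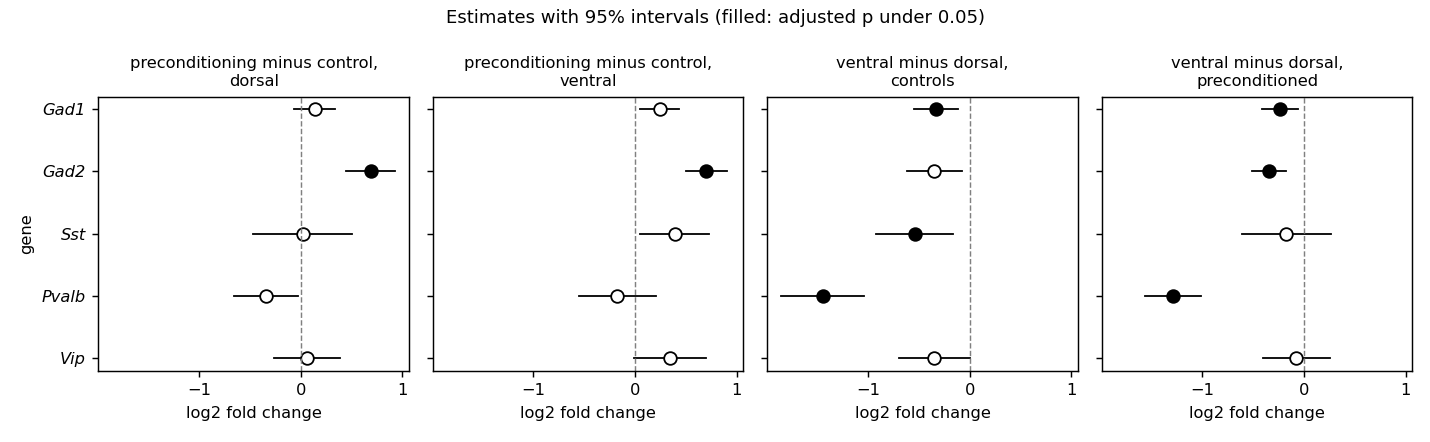
Log2 fold change (horizontal axes) of each member with its 95% interval in the 4 comparisons; filled points have an adjusted p under 0.05 in edgeR, open points do not. Gad2 is filled in both comparisons of preconditioning with control, and Pvalb in both comparisons of ventral with dorsal, at -1.45 and -1.29.

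Pvalb did not pass the test after preconditioning in either region. In the dorsal region its mean went from 177 ± 42.0 to 140 ± 15.3 CPM, a log2 change of -0.34 (SE 0.15, 95% interval -0.65 to -0.02, unadjusted p = 0.0371 and adjusted p = 0.568 in edgeR). The highest dorsal control was number 4, at 236 CPM, and without it the value was -0.21 (adjusted p = 0.647). In the ventral region the means were 64.3 ± 16.0 and 57.5 ± 11.5 CPM, a log2 change of -0.17 (SE 0.18, 95% interval -0.55 to 0.20, adjusted p = 0.672). That value was -0.03 without ventral control 2, -0.10 without ventral preconditioning 1, -0.28 without ventral control 1 and -0.30 without ventral preconditioning 5. A fall of up to the lower bounds, -0.65 in the dorsal and -0.55 in the ventral region, is within the intervals.

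Among dorsal libraries of a group, Sst varied most. It measured 159, 168, 230, 291 and 166 CPM in dorsal controls 1 to 5, and 311, 122, 215, 201 and 179 CPM in dorsal preconditioning 1 to 5. The preconditioned dorsal group held both a library above and a library below all dorsal controls. The coefficient of variation was 28.2% and 33.5% in these groups. For the other members it ranged from 4.55% (Gad1, dorsal preconditioning) to 23.8% (Pvalb, dorsal controls). Its log2 change was 0.02 (SE 0.23, 95% interval -0.47 to 0.51, edgeR adjusted p = 0.993), so a change of either sign within those bounds is not excluded.

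In the ventral region Sst measured 159, 160, 125, 104 and 150 CPM in controls 1 to 5, and 203, 220, 164, 196 and 130 CPM after preconditioning. Of the preconditioned libraries 4 lay above all controls, and number 5 lay among them. A log2 change of 0.39 (SE 0.16, 95% interval 0.05 to 0.73) had an unadjusted p of 0.0268 and an adjusted p of 0.202 in edgeR. It passed with limma-voom and sample quality weights, at 0.53 (adjusted p = 0.0196). The difference from the dorsal response was 0.37 (SE 0.29, 95% interval -0.23 to 0.98, edgeR adjusted p = 0.893). It was 0.57 without dorsal preconditioning 1, 0.21 without dorsal control 4, 0.23 without dorsal preconditioning 2 and 0.13 without the 3 libraries that stood apart.

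Between the regions, Sst was lower in ventral controls, by a log2 value of -0.54 (SE 0.18, 95% interval -0.92 to -0.16, edgeR adjusted p = 0.0379). With the library number as a block the value was -0.52 and did not pass (adjusted p = 0.0741), nor did it with all 20 libraries in one fit (-0.54, adjusted p = 0.0513). It was also lost without dorsal control 3 or 4, or ventral control 3, 4 or 5, with values between -0.38 and -0.56. After preconditioning the regional value was -0.17 (SE 0.20, 95% interval -0.61 to 0.26, adjusted p = 0.582). It was 0.03 without dorsal preconditioning 1, -0.31 without dorsal preconditioning 2 and -0.07 without ventral preconditioning 5. In 4 of 5 same-numbered pairs the ventral library had the lower value, with differences in log2 CPM from -0.62 to -0.03, and in the second pair it was higher by 0.85.

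Vip had the lowest counts, between 70 and 692 per library. Its range was 24.4 to 37.5 CPM in dorsal controls, with a median of 30.7, and 27.2 to 42.3 CPM in dorsal preconditioned libraries, with a median of 30.7. In the ventral region it ranged from 20.7 to 31.3 CPM in controls, with a median of 21.7, and from 23.2 to 36.5 CPM after preconditioning, with a median of 33.2. All 4 ranges overlapped. The log2 fold change after preconditioning was 0.07 (SE 0.15, 95% interval -0.26 to 0.39, edgeR adjusted p = 0.953) in the dorsal region. In the ventral region it was 0.34 (SE 0.16, 95% interval -0.01 to 0.70, adjusted p = 0.298).

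Vip was at -0.35 in ventral against dorsal controls (SE 0.16, edgeR adjusted p = 0.14). With the library number as a block the same value passed (adjusted p = 0.0399), and all 5 control pairs had the lower level in the ventral library. It also passed without ventral control 2, at -0.44 (adjusted p = 0.0486). Without both dorsal control 4 and ventral control 2, which stood apart, it was -0.54 (adjusted p = 0.00859). Of 18 alternatives 4 passed, limma-voom among them (-0.56, adjusted p = 0.00367). DESeq2 (-0.34, adjusted p = 0.135) and the fit without ventral control 4 (-0.28, adjusted p = 0.295) were among those that did not. After preconditioning the regional value was -0.08 (SE 0.15, 95% interval -0.40 to 0.25, adjusted p = 0.768).

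For Npy no level can be given. The deposited count was 0 in every library, where 3 counts would correspond to between 0.144 and 0.929 CPM. An ID at 0 in all libraries can be a failed count, so neither presence nor absence of the transcript is reported, and Npy entered no test.

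The interaction was not called for any of the 5 members, where 0.0781% of 14087 genes were called in edgeR. For Vip the difference of the responses was 0.27 (SE 0.23, 95% interval -0.20 to 0.74, adjusted p = 0.899). In this edgeR fit of all 20 libraries the members' unadjusted p-values were at least 0.216. In limma-voom Vip was at 0.41 (unadjusted p = 0.0535) and Gad1 at 0.20 (unadjusted p = 0.0552). Without the 3 libraries that stood apart Vip was at 0.57 (unadjusted p = 0.0138, adjusted p = 0.425 in edgeR), and without dorsal preconditioning 1 Sst was at 0.57 (unadjusted p = 0.0454, adjusted p = 0.723). The count of members called stayed at 0 in all alternatives run, DESeq2 and limma-voom included.

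The subclass markers were also set against the decarboxylases of the same library, as the log2 count minus the mean log2 count of Gad1 and Gad2. These ratios are descriptions and were not tested. For Pvalb the ratio lay between -0.98 and 0.34 in dorsal controls and between -2.20 and -1.16 in ventral controls. After preconditioning it lay between -1.35 and -0.99 in dorsal and between -2.53 and -1.63 in ventral libraries. In each condition the dorsal and ventral ranges were apart, so Pvalb was lower in the ventral region relative to the decarboxylases too. The dorsal ranges of the conditions were also apart, by the gap between -0.98 and -0.99, and the ventral ones overlapped. Because Gad2 rose, the ratio falls for any marker that stays level. The Sst ratios of all 4 groups overlapped, with group means from -0.68 to -0.24, and so did those of Vip, with means from -3.26 to -2.90.

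**Figure D4:**
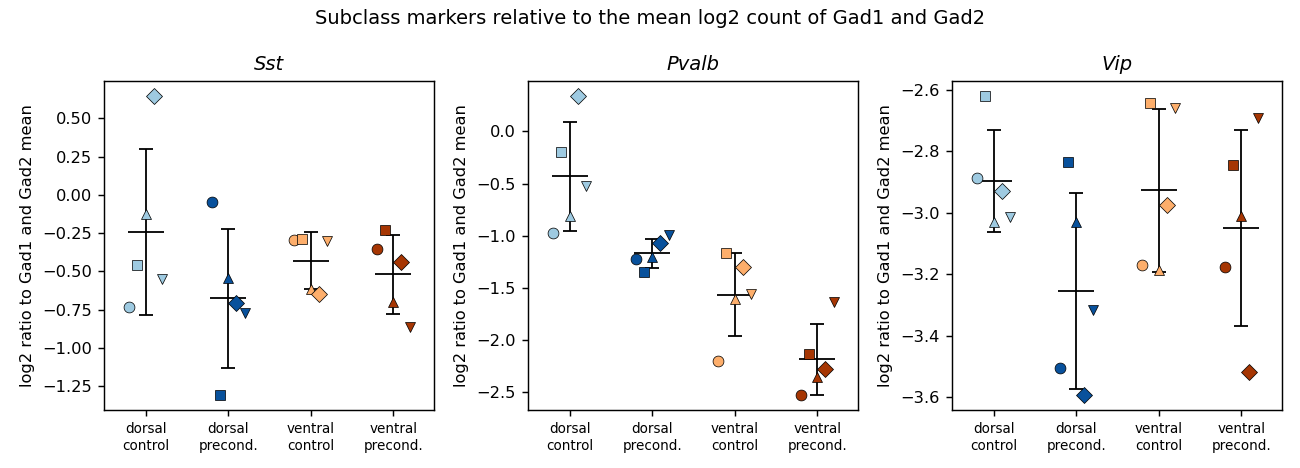
Log2 count of Sst, Pvalb and Vip minus the mean log2 count of Gad1 and Gad2 in the same library (vertical axes, not starting at 0), by group, with group mean ± SD (n = 5) and library number as symbol shape. The Pvalb ratios of dorsal and ventral libraries are apart in each condition, while those of Sst and Vip overlap in all 4 groups.

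Whether the members varied together among libraries of the same group was examined next. Deviations of log2 CPM from the group mean were correlated for 10 pairs of members in each region, over 10 libraries. None of the 20 relations passed after Benjamini-Hochberg adjustment of the permutation p-values, the lowest being 0.244 for Pearson's r and 0.528 for Spearman's rho. At an unadjusted p under 0.05 there were 3 by Pearson's r and 1 by Spearman's rho. In the dorsal region r was -0.77 for Gad2 and Pvalb (permutation p = 0.0303) and -0.74 for Sst and Vip (permutation p = 0.0266). In the ventral region it was 0.71 for Gad1 and Sst (permutation p = 0.0382). Without the 2 libraries farthest from the median of the first-named gene these r were -0.40, -0.59 and 0.06. The rho was -0.67 for Gad1 and Pvalb in the ventral region (permutation p = 0.0472). The largest r was that of Gad1 and Gad2 in the dorsal region, at 0.78 (permutation p = 0.0609, adjusted p = 0.244), with a rho of 0.55 (permutation p = 0.183). Without the 2 libraries farthest from the median of Gad1 it was 0.09. Leaving these out narrows the range of Gad1, so the lower r does not show that the relation rested on them. For Gad1 and Sst in the dorsal region the same step moved r from -0.14 to 0.77. Deviations of dorsal and ventral libraries of the same number were correlated for each of the 5 members over 10 pairs. There r was positive for Gad1, Gad2, Pvalb and Vip, between 0.56 and 0.75, and -0.44 for Sst. The 2 pairs farthest from the median of the dorsal deviations were also left out. Then r was 0.11 for Gad1, 0.24 for Gad2, 0.46 for Pvalb, 0.49 for Vip and -0.62 for Sst. Neither coefficient passed for any member (lowest adjusted permutation p 0.185 for r and 0.218 for rho, and 0 unadjusted p-values under 0.05).

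Across all 20 libraries, which fall into separate groups, the level of Gad2 resembled that of Gad1 with a Pearson r of 0.81. Among 12652 genes with a mean count of at least 20, Gad1 was the 13th nearest to Gad2, and Gad2 the 46th nearest to Gad1. The nearest to Gad1 were ENSRNOG00000010881 and ENSRNOG00000026504, with r of 0.91 and 0.90. For Sst, Pvalb and Vip, r with Gad1 was 0.50, 0.47 and 0.45. These values describe shared regional and treatment differences as well as shared deviations.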

How the data were processed

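RNA from laser-microdissected dorsal and ventral subiculum was sequenced from TruSeq Stranded mRNA libraries, per the labels' protocols. The authors deposited raw counts per Ensembl gene ID, with 1 column for each of 20 libraries. STAR, DESeq2 and the build Rnor_5.0 are named in the submitters' processing notes, with no roles. The counting tool, annotation and strand setting are not given in the sources used here, so reads of overlapping, antisense or near-identical genes may be split or lost.

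Groups and library numbers come from the sample titles. The members and lists were chosen with earlier results of these data known. The text names all members and, for Gad1, the 2 genes most like it. Lists of other interneuron genes, GABA receptors, peptide receptors and cell type markers were not run, because 0 of the 32883 IDs matched a table of 47357 rat genes.

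Genes were tested with edgeR 4.0.16 (filterByExpr, TMM, glmQLFit with robust=TRUE, glmQLFTest) in R 4.3.3, with Benjamini-Hochberg adjustment over all genes tested and calls under 0.05. Each comparison of 2 groups used its own 10 libraries, and the interaction all 20. The standard error is the log2 fold change divided by the square root of F, and the interval uses the moderated degrees of freedom. The fits were tested on simulated data. Log2 CPM used a prior count of 2. Correlations used 100000 permutations within groups. Floors of 3 counts cover counting error only.

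Alternatives were DESeq2 1.42.0, its size factors in edgeR, 2 other filters on low counts, a block on library number, limma-voom (limma 3.58.1) with sample weights, a joint fit of all 20 libraries, and fits that leave out 1 library each. Leaving out the 3 libraries that stood apart was added after seeing the data. Each comparison left out those in its own groups, so all 3 were left out only for the interaction. For the block, deviations of same-numbered libraries from their group means were correlated over 14087 genes. In dorsal and ventral controls all 5 pairs had an r of 0.20 to 0.393, which pairs these libraries by the data, while the labels do not state a shared animal.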

Additional observations from a re-analysis of the deposited data

How the results depend on the processing

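Of 495 refits of a member's log2 fold change, 459 kept their side of the threshold, 23 lost a call, 13 gained one and 0 reversed a called value. These counts include repeats. In the ventral response and between the preconditioned regions, only 1 library stood apart, so that fit equals the one leaving this library out. Pvalb between the regions and Gad2 in the ventral response to preconditioning kept their calls in all refits. The number of genes called moved as follows. In the dorsal response it went from 37 to 169 with DESeq2, 172 with limma-voom, 97 with all libraries in one fit and 105 without the libraries that stood apart. It ranged from 15 to 50 with each library left out, and members called from 0 to 1. In the ventral response it went from 672 to 1085 with DESeq2 and 1508 with limma-voom. It was 1029 without ventral control 2, the only one of those libraries in these groups. With each library left out, that fit included, it ranged from 432 to 1029. There limma-voom called 3 members, where 1 was called. In the regional comparison of controls, limma-voom and the fit without those libraries each called 5 members, where 3 were called, and each library left out gave 1 to 5. For the interaction the 11 genes became 55 with DESeq2, 100 with limma-voom, 28 without those libraries and 6 to 20 with each library left out. The cause was not tested.

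With the library number as a block, 0 members were called in the dorsal response (Gad2 0.70, edgeR adjusted p = 0.0515), 1261 genes in the ventral response and 62 for the interaction. Same-numbered libraries did not deviate together in the dorsal response (mean r -0.0261), and their r was not over 0.1 in every pair in the ventral response (mean 0.148) or between the preconditioned regions (mean 0.198). Libraries correlated best with their own number in 0, 2 and 4 of 5 pairs there, and in 5 of 5 between the control regions. Beyond the changes given in the report, the block changed no other call of a member. Depth limits Vip most, with 70 counts in ventral control 1.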
